A study of Saccharomyces cerevisiae with 23 samples.

Results

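The question here was how much further the splicing of budding yeast introns shifted at 48 h in a nam8 deletion than in wild type. For every intron the change between log phase and 48 h was taken in nam8D and in the wild-type set WTb, and the WTb change was subtracted from the nam8D change. The comparison used 12 of the 23 libraries, 3 each of nam8D at 48 h, nam8D in log phase, WTb at 48 h and WTb in log phase. All strains were Saccharomyces cerevisiae of the BY background, grown in minimal medium with 2% glucose, and the 48 h cultures are described as stationary phase. The nam8D libraries carry the NAM8 deletion and the WTb libraries no labelled mutation. Beside them stand 6 libraries of a mud1 mutant, mud1D in the genotype label though its table rows use another suffix (mud1S), and 5 of the other wild-type set, WTa, in the same 2 conditions. The labels give 1 of several strain names to each library, and the same names recur in nam8D and WTb, so a strain name marks no genotype. In both sets the names partly follow condition, with 1 name found only in log phase and another only at 48 h. Nothing in the labels states that replicates came from separate cultures. Every p-value thus measures how these samples spread, and that spread may be technical. NAM8 holds no intron in the tables, and its loss was therefore not checked.

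Nam8 is an RNA-binding protein of the U1 snRNP, which makes the first contact with the 5′ splice site during splicing. It contacts the intron just downstream of that site, favours stretches rich in U, and is dispensable for vegetative growth. It is best known for meiosis, where it acts with or without the meiotic factor Mer1 on a few introns with weak 5′ splice sites. Mud1, an RNA-binding protein too, belongs to the same particle.

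In multiplexed primer extension sequencing, pooled primers placed beside chosen introns prime the cDNA, and a read shows whether its RNA still held the intron. The deposited tables list, per intron and library, a mature count for spliced and a premature count for unspliced RNA. The premature share is the percentage of an intron's counts that were premature. Response means how log2(premature/mature) changed, 48 h minus log phase, and the splicing difference means the nam8D response minus the WTb response. A splicing difference above 0 therefore says that unspliced RNA gained more on spliced RNA in nam8D than in WTb. The 48 h libraries held between 3926278 and 4709817 counts and the log-phase libraries between 6693650 and 7228349. The tables name 284 introns. All 12 libraries list 276 of these, and the 275 whose counts averaged 20 or more were tested.

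Unspliced RNA gained more in nam8D than in WTb at most introns. ECM33, which encodes a cell wall protein, DMC1, the meiotic recombinase, DBP2, an RNA helicase, and BMH2, a 14-3-3 protein, had the largest splicing differences. Of the 275 introns, 148 had a higher response in nam8D (53.8%) and 5 a lower one (1.82%) by edgeR's quasi-likelihood test, at a Benjamini-Hochberg adjusted p below 0.05. The median splicing difference was 0.62 on the log2 scale, with quartiles of 0.31 and 0.95. It lay above 0 for 249 introns and below 0 for 26. The median response was 1.05 in nam8D and 0.41 in WTb. By itself the response was higher than 0 in 191 introns (69.5%) and lower in 26 (9.45%) in nam8D, and higher in 145 (52.7%) and lower in 50 (18.2%) in WTb.

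After every library was centred on its own median intron, 35 introns (12.7%) were higher and 41 (14.9%) lower in limma, and the median moved to -0.05. All 35 were among the 148 higher without centring, and 0 of the 41 were. The centred values say how an intron moved against the median of its library, and the uncentred ones include the shift of that median.

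Over the 275 introns, the median premature share was 8.19, 9.81 and 9.46% in nam8D at 48 h, against 5.84, 5.32 and 6.57% in WTb at 48 h. No nam8D library overlapped a WTb library. In log phase the medians were 4.72, 4.19 and 4.93% in nam8D and 4.52, 4.52 and 4.64% in WTb, and the groups overlapped. At 48 h nam8D averaged 9.15% ± 0.86 and WTb 5.91% ± 0.63 (SD, n = 3 each; two-sided exact permutation p = 0.1, the smallest that 3 against 3 allows). In log phase the means were 4.62% ± 0.38 in nam8D and 4.56% ± 0.07 in WTb (SD, n = 3 each; exact permutation p = 0.9). Ribosomal protein introns had a median share of 2.29% ± 0.15 in nam8D and 1.27% ± 0.07 in WTb at 48 h, and the introns of other genes 14% ± 0.76 and 9.67% ± 0.75 (SD, n = 3 each). In log phase the ribosomal protein medians were 0.628, 0.567 and 0.670% in nam8D and 0.554, 0.544 and 0.567% in WTb, which did not overlap (exact permutation p = 0.1), while the nam8D values lay below every 48 h value of either strain. The premature share of all counts pooled was also apart in log phase, at 2.18% ± 0.10 in nam8D and 1.89% ± 0.03 in WTb (SD, n = 3 each; exact permutation p = 0.1), against 7.19% ± 0.66 and 4.98% ± 0.04 at 48 h.

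Counted intron by intron, the 3 nam8D shares lay above the 3 WTb shares at 48 h in 211 of 275 introns (76.7%) and below them in 3 (1.09%). In log phase the nam8D shares lay above at 82 introns (29.8%) and below at 14 (5.09%). Among the 148 introns with a higher response, nam8D was above WTb in every library at 48 h for 142, while in log phase the groups overlapped for 100. In log phase nam8D was already above for 41 and was below for 7. The 48 h values also helped to choose the 148, so the 142 was largely fixed in advance. The log-phase counts of 41 and 7 lie near the shares over all introns.

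**Figure D1:**
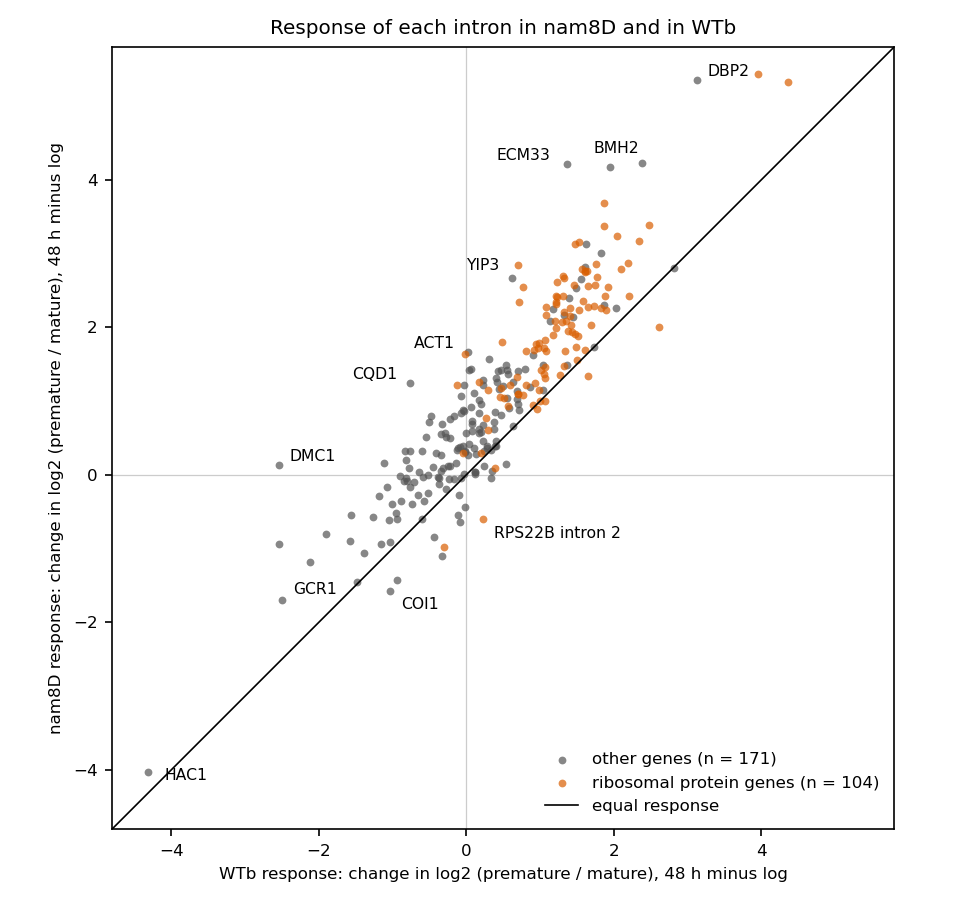
Each point is 1 of 275 introns, with the WTb response (48 h minus log phase, in log2 of premature over mature counts) on the horizontal axis and the nam8D response on the vertical axis. The line marks equal responses, and 249 introns lie above it. Ribosomal protein introns are orange and other introns grey.

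The 148 introns reached their difference in more than 1 way. In nam8D, 127 had a share above their own log phase in every 48 h library, against a background of 198 of the 275 tested (72.0%). In WTb, 94 of the 148 lay above their log phase in this sense, against 151 of the 275 (54.9%). A further 28 lay below their log phase in every WTb 48 h library, against 54 of the 275 (19.6%), and 26 overlapped. The same libraries chose the 148, so the gaps between these counts and their backgrounds were partly fixed in advance. The introns named below follow these patterns: a rise in both strains that was steeper in nam8D, a rise in nam8D with no call in WTb, and a fall in WTb that nam8D lacked.

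A steep rise in both strains was seen in ECM33, DBP2, BMH2 and IMD4. The 5′ ends of 3 of these introns, each with its first 6 bases in capitals as the 5′ splice site, are shown because Nam8 is known to contact the bases that follow. Sequences are from RefSeq's R64 genome, and BMH2 had no single matching annotated intron.
ECM33: GTATGTacacattctccttttttttcatct
DBP2: GTATGTtaaaattttctccatttttttatt
IMD4: GTATGTtataatagacaaaatttttggtat
All 3 open with GTATGT, the consensus of 180 of the 231 annotated introns analysed for sequence. Bases 7 to 46 of the intron were 62.5% T in ECM33, 70% in DBP2 and 50% in IMD4, against a median of 35% over those introns. Other introns with large differences were not all rich in T. The value was 17.5% in RPS24B, 30% in RPL42B, 32.5% in CQD1 and YIP3, 40% in RPL2B and 42.5% in DMC1.

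ECM33 is a cell wall protein anchored by glycosylphosphatidylinositol, and its intron lies in coding sequence at chrII:393181-393510 on the plus strand. Its premature share was 80.8, 87.0 and 87.4% in nam8D at 48 h and 23.9, 20.6 and 27.2% in nam8D in log phase. In WTb it was 33.5, 28.6 and 34.9% at 48 h and 15.1, 17.2 and 14.6% in log phase. Each of the 4 groups was apart from the others, with nam8D at 48 h far above the rest. The splicing difference was 2.84 ± 0.25 (SE, adjusted p = 3.1e-09), from a response of 4.21 in nam8D and 1.37 in WTb. Spliced ECM33 RNA was lower in nam8D at 48 h, with 164, 165 and 169 mature CPM (counts scaled to the same library total), against 251, 272 and 278 in WTb. Unspliced RNA was higher, with 693, 1101 and 1172 premature CPM in nam8D against 126, 109 and 149 in WTb.

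DBP2, a DEAD-box RNA helicase whose long intron takes part in its own regulation, lies at chrXIV:414912-415913 on the plus strand. Its share was 84.5, 84.3 and 83.8% in nam8D at 48 h and 11.6, 10.5 and 12.5% in log phase. The WTb values were 42.1, 47.7 and 33.1% at 48 h and 7.39, 6.99 and 7.55% in log phase. Both conditions separated nam8D from WTb without overlap, by far more at 48 h. The splicing difference was 2.23 ± 0.23 (SE, adjusted p = 7.1e-08).

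BMH2 encodes a 14-3-3 protein, a family that binds phosphorylated partners in signalling. Its share at 48 h was 33.1, 40.1 and 38.6% in nam8D, against 7.91, 8.42 and 8.25% in WTb. In log phase it was 3.16, 3.19 and 3.23% in nam8D and 2.38, 2.10 and 2.30% in WTb. All 3 nam8D libraries stood above WTb in both conditions, and the splicing difference was 2.22 ± 0.18 (SE, adjusted p = 1.1e-09). IMD4, an IMP dehydrogenase of GTP synthesis that hosts a small nucleolar RNA, had shares of 44.5, 52.8 and 44.9% in nam8D and 23.7, 24.9 and 20.9% in WTb at 48 h. In log phase the nam8D libraries (4.73, 3.69 and 5.47%) overlapped WTb (6.19, 5.26 and 4.86%). The splicing difference of IMD4 was 1.84 ± 0.25 (SE, adjusted p = 1.7e-06).

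Ribosomal protein introns had low premature shares, and most of them rose in both strains, and further in nam8D. The rise was called in 100 of 104 in nam8D and 94 in WTb, against 69.5% and 52.7% over all introns. Of 104 tested, 67 had a higher and 2 a lower splicing difference, with a median of 0.71, against 53.8% higher, 1.82% lower and a median of 0.62 over all introns. The median response of the group was 1.97 in nam8D and 1.23 in WTb. With libraries centred, 18 were higher and 11 lower, against 12.7% and 14.9% over all introns. By comparison, 81 of the 171 introns of other genes were higher and 3 lower, with a median of 0.56, and 17 were higher and 30 lower once centred. Many ribosomal protein genes are duplicated, and reads of near-identical copies may have been split between them, so values of single copies are uncertain.

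RPL7A intron 2 led the ribosomal protein introns. This intron, from a gene of the large subunit with small nucleolar RNAs in its introns, had shares of 4.86, 4.22 and 4.49% in nam8D and 0.987, 0.703 and 0.812% in WTb at 48 h. In log phase it had 0.600, 0.630 and 0.737% in nam8D and 0.588, 0.497 and 0.463% in WTb. The nam8D libraries stood apart at 48 h, and in log phase their lowest value was just above the highest of WTb. The splicing difference was 2.15 ± 0.20 (SE, adjusted p = 1.2e-08), while that of intron 1 of the same gene was 1.19 ± 0.28 (SE, adjusted p = 0.0011).

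RPS24B of the small subunit, and RPL2B and RPL42B of the large one, were also among the largest. RPL2B averaged 8.09% ± 1.06 in nam8D and 3.03% ± 0.53 in WTb at 48 h, with 0.993% ± 0.039 and 1.11% ± 0.11 in log phase (SD, n = 3 each), a splicing difference of 1.65 ± 0.21 (SE, adjusted p = 7.2e-07). RPS24B averaged 4.05% ± 0.68 in nam8D and 1.33% ± 0.19 in WTb at 48 h, and its splicing difference was 1.78 ± 0.22 (SE, adjusted p = 6.8e-07). RPL42B was one of the introns that rose in nam8D and were not called in WTb. It had 0.727, 1.18 and 1.19% in nam8D at 48 h and 0.344, 0.305 and 0.332% in log phase, against 0.345, 0.332 and 0.397% in WTb at 48 h and 0.329, 0.355 and 0.402% in log phase. Only the nam8D 48 h group stood apart, and the splicing difference was 1.65 ± 0.23 (SE, adjusted p = 2.7e-06).

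Outside the ribosomal protein genes ACT1 showed the same pattern, and EFB1 and UBC4 also had a higher splicing difference. ACT1, the actin gene, had shares of 10.1, 12.9 and 12.5% in nam8D at 48 h, against 4.02, 3.81 and 3.91% in WTb. In log phase it had 4.40, 3.81 and 3.93% in nam8D and 3.51, 3.93 and 4.07% in WTb. The response was 1.66 ± 0.13 in nam8D and 0.03 ± 0.13 in WTb (SE), which gives a splicing difference of 1.63 ± 0.19 (SE, adjusted p = 2.0e-07). EFB1, a translation elongation factor whose intron hosts a small nucleolar RNA, averaged 9.65% ± 1.28 in nam8D and 4.51% ± 0.49 in WTb at 48 h (SD, n = 3 each), a splicing difference of 1.06 ± 0.18 (SE, adjusted p = 5.4e-05). UBC4, a ubiquitin-conjugating enzyme, averaged 3.05% ± 0.15 in nam8D and 2.32% ± 0.27 in WTb at 48 h, but 1.48% ± 0.37 in nam8D and 2.44% ± 0.55 in WTb in log phase (SD, n = 3 each). Its splicing difference of 1.14 ± 0.25 (SE, adjusted p = 0.00052) thus came from both conditions, and with libraries centred it was 0.48 and did not pass.

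**Figure D2:**
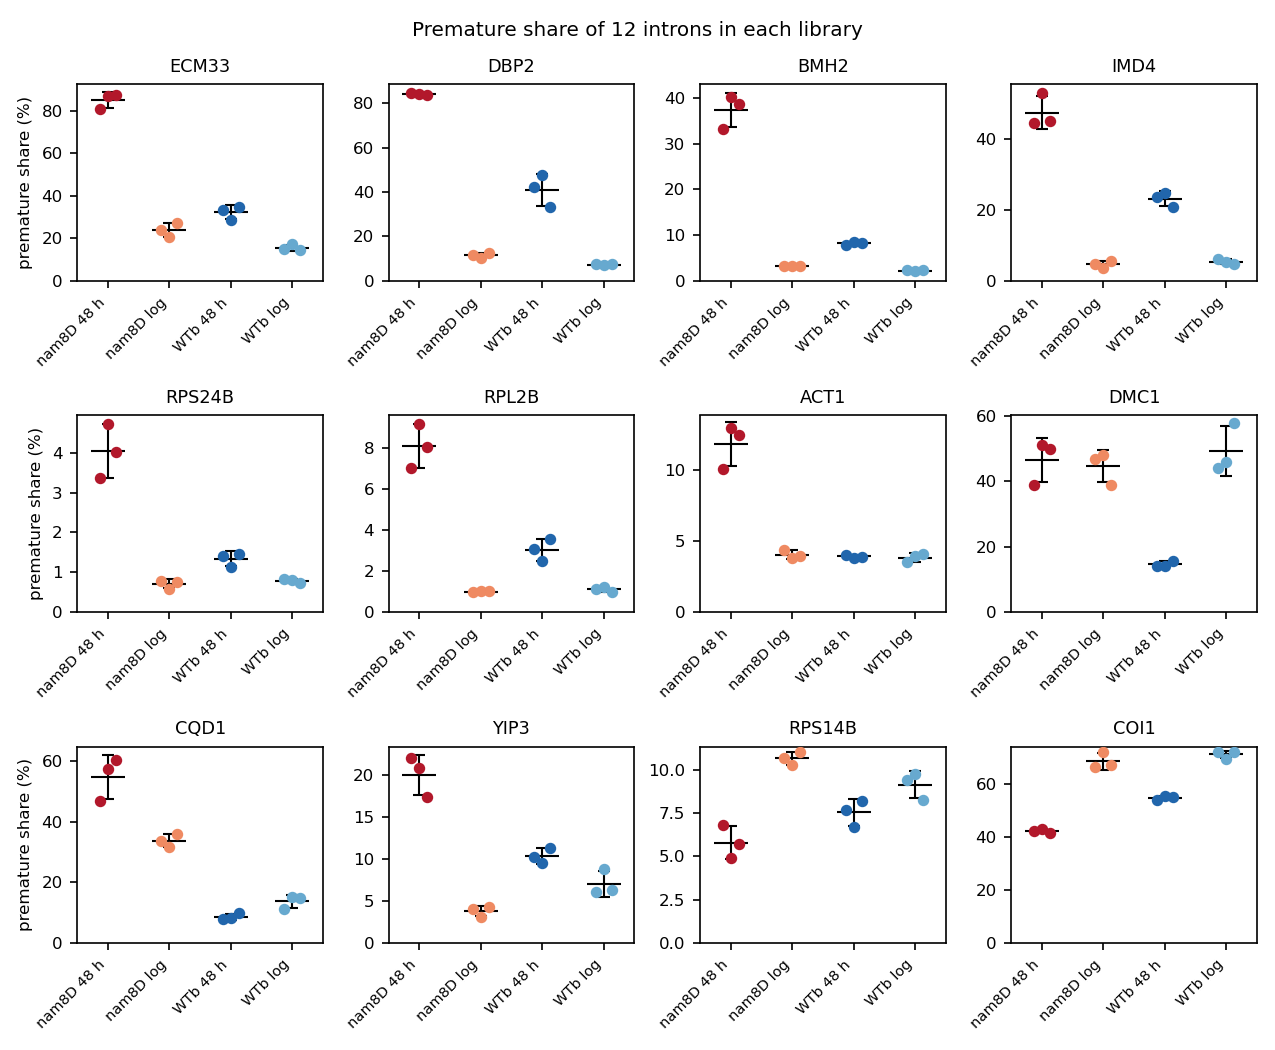
Premature share in percent (vertical axis, from 0, with a scale of its own in each panel) of 12 introns in the nam8D 48 h, nam8D log, WTb 48 h and WTb log libraries. Points are libraries, and the black marks are means with SD (n = 3). In ACT1 only the nam8D 48 h libraries stand apart (10.1 to 12.9%), in DMC1 only the WTb 48 h libraries do (14.1 to 15.7%), and in RPS14B and COI1 the nam8D 48 h libraries are the lowest except for 1 RPS14B library that lies just above the lowest of WTb at 48 h.

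DMC1, CQD1 and GCR1 fell in WTb at 48 h, and in nam8D they did not fall, rose or fell less. The 5′ ends of the DMC1 and CQD1 introns are shown with that of YIP3, whose order of strains changed between conditions, because 2 of the 3 lack the consensus 5′ splice site. The first 6 bases are in capitals.
DMC1: GTATGTtataataacatttttaaaacctct
CQD1: GTTCGTattttacgcatggattaacggttt
YIP3: GTAAGTtctaaattgtaaacacatttgcat
CQD1 begins with GTTCGT and YIP3 with GTAAGT, while DMC1 has GTATGT. Bases 7 to 46 were 42.5% T in DMC1 and 32.5% in both CQD1 and YIP3.

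DMC1, the strand-exchange protein of meiotic recombination, has its intron at chrV:548553-548644 on the plus strand. Its share was 38.7, 51.0 and 50.0% in nam8D at 48 h and 46.9, 47.9 and 39.0% in log phase, and the groups overlapped. In WTb it was 14.2, 14.1 and 15.7% at 48 h, below all other libraries, and 44.0, 45.8 and 57.9% in log phase. The response was 0.14 ± 0.24 in nam8D and -2.53 ± 0.26 in WTb (SE), which gives a splicing difference of 2.67 ± 0.35 (SE, adjusted p = 1.6e-06). Unspliced DMC1 RNA was alike at 48 h, with 19.1, 28.6 and 30.1 premature CPM in nam8D and 19.5, 21.1 and 15.8 in WTb. Spliced RNA was not, with 30.2, 27.5 and 30.1 mature CPM in nam8D against 118, 129 and 84.9 in WTb. WTa went further than WTb here, with a WTa minus WTb difference of -1.09 ± 0.31 (SE, adjusted p = 0.0068).

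CQD1, a mitochondrial protein of coenzyme Q distribution, lies at chrXVI:345445-345596 on the minus strand. Its share was 46.6, 57.4 and 60.3% in nam8D at 48 h and 33.5, 31.7 and 35.8% in log phase. The WTb values were 8.0, 8.06 and 9.72% at 48 h and 11, 15.2 and 14.7% in log phase. The strains were apart in both conditions, and moved in opposite directions, so the splicing difference of 2.01 ± 0.30 (SE, adjusted p = 8.1e-06) came on top of a log-phase difference of 1.68 ± 0.23 (SE, adjusted p = 9.0e-06). YIP3, which is linked to transport from the endoplasmic reticulum to the Golgi, lies at chrXIV:545292-545370 on the plus strand. It had 21.9, 20.8 and 17.3% in nam8D and 10.2, 9.45 and 11.3% in WTb at 48 h, but 4.04, 3.14 and 4.24% in nam8D and 6.03, 8.76 and 6.27% in WTb in log phase. The nam8D libraries were thus all above WTb at 48 h and all below it in log phase. The nam8D minus WTb difference was 1.12 ± 0.16 at 48 h and -0.93 ± 0.17 in log phase (SE, adjusted p = 8.6e-07 and 0.00029). Subtracting the log-phase value gives the splicing difference of YIP3, 2.04 ± 0.23 (SE, adjusted p = 1.9e-07).

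GCR1, an activator of glycolytic genes, fell in both strains and less in nam8D. Its share was 40.0, 45.2 and 51.3% in nam8D at 48 h and 72.1, 72.9 and 73.3% in log phase. In WTb it was 18.8, 17.1 and 26.7% at 48 h and 58.1, 57.0 and 62.3% in log phase. The splicing difference was 0.80 ± 0.27 (SE, adjusted p = 0.016), but it was 0.13 with libraries centred. It also lost the call without nam8D 48 h replicate 3 (0.63) and without WTb 48 h replicate 2 (0.63). SRC1, an inner nuclear membrane protein with alternative 5′ splice sites, averaged 62.6% ± 7.93 in nam8D and 45.8% ± 0.67 in WTb at 48 h, with 63.2% ± 1.48 and 61.2% ± 2.34 in log phase (SD, n = 3 each). Its splicing difference was 0.89 ± 0.25 (SE, adjusted p = 0.0047), and 0.21 with libraries centred.

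The known meiotic targets of Nam8 that could be tested, REC107 and PCH2, did not pass for the splicing difference. They are 2 of the 5 listed introns of the meiotic targets of Mer1 and Nam8. An intron is listed in a library only with at least 1 mature count, so a target left almost wholly unspliced can drop out untested. The result therefore does not cover the targets as a set. Of 14 introns of meiotic genes, 7 could be tested, and DMC1 was the 1 that passed, against 53.8% higher over all introns. The median of the 7 was 0.68, and that of all introns 0.62. REC107, also known as MER2 and a target of Mer1 and Nam8, was nearly all unspliced in nam8D in both conditions. Its share was 98.1, 97.8 and 97.8% in nam8D at 48 h and 97.5, 96.4 and 97.9% in log phase. The WTb shares were 89.9, 89.0 and 90.0% at 48 h and 86.9, 91.6 and 89.9% in log phase. Every nam8D library lay above every WTb library, by 2.44 ± 0.24 at 48 h and 2.06 ± 0.29 in log phase (SE, adjusted p = 2.8e-09 and 9.5e-06). The splicing difference was 0.39 ± 0.42 (SE, adjusted p = 0.43). The REC107 intron, at chrX:469184-469263 on the minus strand, begins like that of CQD1 with GTTCGT, and no other tested intron with matched coordinates does.

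PCH2, a checkpoint ATPase of meiosis, rests on few mature reads. Its share was 87.4, 96.9 and 89.7% in nam8D and 64.2, 63.5 and 69.0% in WTb at 48 h, and 98.4, 91.1 and 98.3% and 87.2, 96.0 and 88.1% in log phase, where mature counts ran from 1 to 7 per library. The strains were apart at 48 h (2.52 ± 0.38, SE, adjusted p = 2.2e-06) and overlapped in log phase, and the splicing difference of 0.93 ± 1.03 did not pass (SE, adjusted p = 0.44). Without nam8D log replicate 2 it was -0.13, and in limma with a pseudocount of 5 it passed at 1.20 (adjusted p = 0.029).

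Of 12 introns of genes known to regulate their own splicing or RNA level, 8 were higher and 1 lower, with a median splicing difference of 0.91, against 53.8% higher, 1.82% lower and a median of 0.62 over all introns. With libraries centred, 4 were higher and 2 lower, against 12.7% and 14.9% over all introns. Among the higher ones were DBP2, RPL22A, RPL22B, RPL30, MTR2 and YRA1. RPL30, whose protein binds its own transcript and blocks splicing, had 2.53, 2.88 and 2.63% in nam8D and 0.957, 0.824 and 1.0% in WTb at 48 h, without overlap, and means of 0.407% ± 0.043 and 0.309% ± 0.057 in log phase (SD, n = 3 each). Its splicing difference was 1.15 ± 0.20 (SE, adjusted p = 6.1e-05), and 0.48 with libraries centred, which did not pass. YRA1, an mRNA export factor, averaged 84.4% ± 3.20 in nam8D and 73.5% ± 2.51 in WTb at 48 h, with 67.2% ± 3.60 and 63.0% ± 3.14 in log phase (SD, n = 3 each). Its splicing difference was 0.71 ± 0.23 (SE, adjusted p = 0.013), but 0.57 and no longer past the threshold without nam8D 48 h replicate 3, and 0.04 with libraries centred. MTR2, another export factor, was above 97% premature in every library, and its splicing difference was 0.85 ± 0.21 (SE, adjusted p = 0.0016), or 0.19 with libraries centred.

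RPS14B, a small-subunit gene whose protein inhibits splicing of its own transcript, went the other way. It is shown with COI1 and MRPL44, which also had a lower response in nam8D, with the first 6 bases in capitals.
RPS14B: GTACGTgaaaggggtgatatcctgtttaaa
COI1: GTATGTgtaaaagaaatagggaaacatcta
MRPL44: GTATGTattttttttcgctctgttattcgt
RPS14B begins with GTACGT, one of 19 such introns tested. Bases 7 to 46 were 37.5% T in RPS14B, 20% in COI1 and 55% in MRPL44.

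The RPS14B intron lies at chrX:73797-74204 on the plus strand. Its share was 6.80, 4.88 and 5.69% in nam8D at 48 h and 10.7, 10.3 and 11% in log phase. In WTb it was 7.70, 6.70 and 8.22% at 48 h and 9.43, 9.76 and 8.27% in log phase. In log phase nam8D lay above WTb, and at 48 h below it except that its highest library passed the lowest of WTb. The splicing difference was -0.66 ± 0.20 (SE, adjusted p = 0.0063), and -0.37 and no longer past the threshold with WTa as wild type.

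COI1, a mitochondrial inner membrane protein, and MRPL44, of the mitochondrial ribosome, had splicing differences of -0.54 ± 0.22 and -0.56 ± 0.20 (SE, adjusted p = 0.038 and 0.021). COI1 had 42.3, 43.2 and 41.4% in nam8D and 53.9, 55.2 and 54.9% in WTb at 48 h, with 66.2, 72.1 and 67.1% and 71.9, 69.5 and 72.0% in log phase. At 48 h the groups were apart by over 10 points, while in log phase they overlapped. The COI1 call was lost with WTa as wild type (-0.46) and when any of 8 of the 12 libraries was left out. It was also lost in DESeq2 (adjusted p = 0.069), with all 23 libraries in 1 fit and with strain name as a term. MRPL44 averaged 9.60% ± 0.75 in nam8D and 11.1% ± 1.01 in WTb at 48 h, with 14.2% ± 1.03 and 11.6% ± 0.23 in log phase (SD, n = 3 each), and its call was lost without any of 3 libraries (-0.50 to -0.47).

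The other 2 lower introns were RPS22B intron 2 and SIM1, neither with a single matching annotated intron. RPS22B is a small-subunit gene with a small nucleolar RNA in 1 of its introns. Intron 2 had 5.88, 10.3 and 9.74% in nam8D and 8.77, 7.47 and 8.56% in WTb at 48 h, which overlapped, but 12.5, 12.3 and 11.9% in nam8D and 6.92, 7.44 and 6.97% in WTb in log phase, which did not. Its splicing difference was -0.83 ± 0.24 (SE, adjusted p = 0.0053). Without nam8D 48 h replicate 1, the library at 5.88%, it was -0.55 and still passed. SIM1, of the SUN family linked to the cell wall, averaged 31.7% ± 6.57 in nam8D and 39.7% ± 4.21 in WTb at 48 h, with 49.4% ± 0.45 and 45.3% ± 0.92 in log phase (SD, n = 3 each). The SIM1 splicing difference of -0.77 ± 0.26 (SE, adjusted p = 0.014) was -0.51 and no longer past the threshold without nam8D 48 h replicate 1, and -0.37 with WTa as wild type.

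Vesicle transport had 13 of 23 introns higher, with a median of 0.70, and RNA processing and export 7 of 10 higher, with a median of 0.78. The vesicle list includes VPS75, which encodes a histone chaperone despite its name. Of the hosts of small nucleolar RNAs, 9 of 13 introns were higher and 1, RPS22B intron 2, lower. Cytoskeletal genes had 5 of 13 higher, ubiquitin and proteasome genes 3 of 8, signalling and cell cycle genes 4 of 8, and translation factors 2 of 2. Cell wall and surface genes had 2 of 5 higher and 1 lower.

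Mitochondrial respiration and ribosome genes had 4 of 11 introns higher and 2 lower, with the smallest median of these lists, 0.24. The higher ones were CQD1, MCR1, CMC4 and QCR9, and the lower ones COI1 and MRPL44. With libraries centred, 1 was higher and 4 lower, against 12.7% and 14.9% over all introns. All the uncentred counts of these lists stand against 53.8% higher and 1.82% lower over all introns.

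MUD1, HAC1 and PTC7 did not pass, but MUD1 and PTC7 did under other settings. MUD1, the gene of the other U1 protein, averaged 8.53% ± 0.53 in nam8D and 6.29% ± 1.01 in WTb at 48 h and 6.63% ± 0.60 and 4.82% ± 0.59 in log phase (SD, n = 3 each), and its splicing difference was -0.01 ± 0.20 (SE, adjusted p = 0.99). With libraries centred MUD1 was lower, at -0.67 (limma, adjusted p = 0.0049). HAC1, whose intron is cut out by Ire1 and sealed by tRNA ligase with no spliceosome, responded by -4.03 ± 0.31 in nam8D and -4.31 ± 0.36 in WTb (SE). The HAC1 splicing difference was 0.28 ± 0.59 (SE, adjusted p = 0.70), but it rests on 1, 4 and 9 mature counts in the WTb log-phase libraries and is of either sign under the alternatives. PTC7, a phosphatase that makes a second protein from RNA with the intron retained, had a splicing difference of 0.46 ± 0.23 (SE, adjusted p = 0.088). PTC7 passed with WTa as wild type (0.83, adjusted p = 0.0011), with the mean of both wild types (0.64, adjusted p = 0.0026), and without replicate 1 of nam8D at 48 h (0.54) or of WTb at 48 h (0.60). It was 0.28 without WTb 48 h replicate 2 and -0.21 with libraries centred.

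For 231 annotated introns the calls were also counted by sequence, with T standing for U in the RNA. GTATGT introns were higher in 103 of 180, with a median splicing difference of 0.70, and introns with other first 6 bases in 27 of 51, with a median of 0.57. By T content of bases 7 to 46, which holds the stretch next to the 5′ splice site that Nam8 is known to contact, 58.9% of the introns with at most 30% T were higher. In the middle class it was 56.6%, and among introns with at least 42.5% T it was 52.3%. Spearman's rho between T content and splicing difference was -0.08 across the 231 introns, which share libraries and are not independent. The letters TACTAAC, the consensus branch site read on the intron's strand, were in 195 of them, 109 of which were higher, against 21 of 36 without.

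Of introns of at least 200 bases, 71 of 107 were higher (66.4%), and of shorter introns 59 of 124 (47.6%). This tracked ribosomal protein genes in part, since 85 of the 86 annotated ribosomal protein introns are long. Among the other genes, 15 of 22 long introns were higher (68.2%) and 58 of 123 short ones (47.2%). As a continuous measure, length followed the splicing difference weakly, with a Spearman's rho of 0.12 over all 231 introns and 0.11 in other genes, and it ran the other way among the 86 ribosomal protein introns (-0.20). Grouped by the response in WTa, whose libraries did not enter the splicing difference, 70.4% of introns with a WTa response of at least 1 were higher. The shares were 61.8% for a WTa response from 0 to 1 and 47.3% for one below 0. Spearman's rho between WTa response and splicing difference was 0.14 over 223 introns, 0.20 in the 86 of ribosomal protein genes and 0.04 in the 137 of other genes. Shares of these groups are descriptions with no test.

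The 2 wild-type sets also differed from each other, which bears on how the splicing differences are read. WTa minus WTb was higher in 10 of 268 introns (3.73%) and lower in 79 (29.5%), with a median of -0.26, so WTa gained less unspliced RNA than WTb. With libraries centred it was 27 higher (10.1%) and 37 lower (13.8%). Of the 12 introns with the largest positive splicing differences, 7 passed for WTa minus WTb, 6 of them lower and RPL42B higher. Their WTa minus WTb values ran from -1.09 to 0.56, against splicing differences of at least 1.65. Of the 148 introns higher against WTb, 137 of the 147 that could be tested were also higher with WTa as wild type. The median against WTa was 0.94. The nam8D libraries are the same in both, so the counts are not independent.

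**Figure D3:**
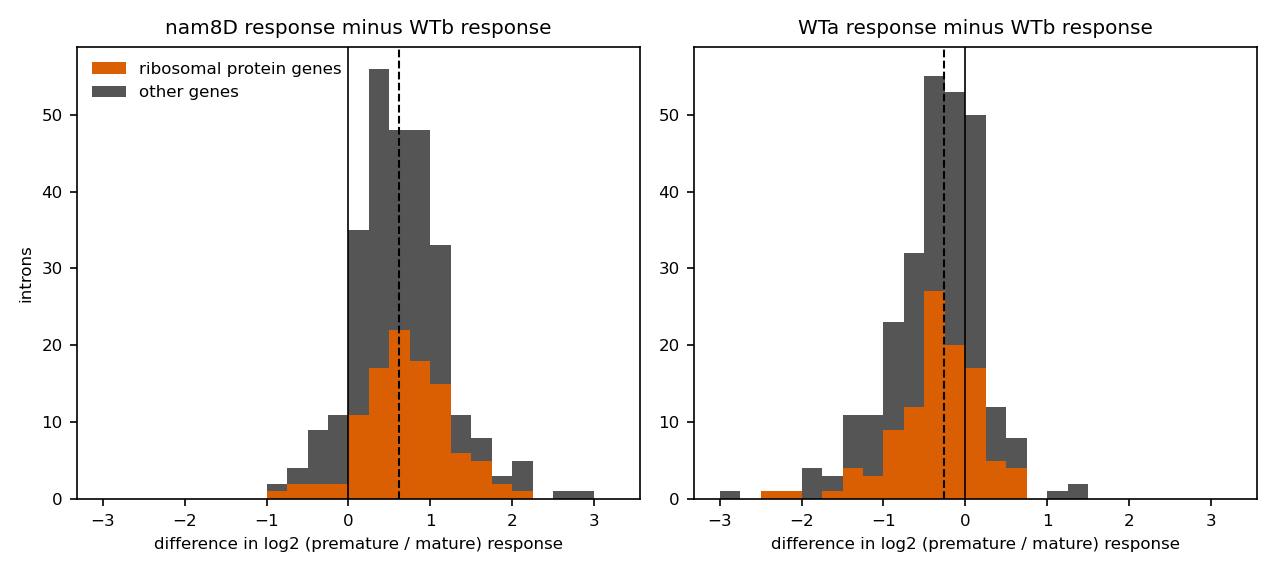
Number of introns (vertical axis) by difference in response on the log2 scale (horizontal axis), for nam8D minus WTb (left, 275 introns) and WTa minus WTb (right, 268 introns), with ribosomal protein introns in orange stacked below other introns in grey. Dashed lines mark the medians, 0.62 and -0.26, and solid lines mark 0.

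Abundance was compared as the sum of mature and premature counts per library total, so that values are relative to the other primed targets. Of 276 introns, 47 had a higher abundance response in nam8D than in WTb (17.0%) and 99 a lower one (35.9%), with a median of -0.09. Ribosomal protein introns were higher in 26 and lower in 14 of 104. Those of other genes were higher in 21 and lower in 85 of 172. The split depended on scaling: with TMM factors it was 68 higher (24.6%) and 77 lower (27.9%), for ribosomal protein introns 40 and 7, and for others 28 and 70. With RLE factors it was 84 higher (30.4%) and 72 lower (26.1%).

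Premature and mature counts moved apart. Scaled to the same library totals, premature counts were higher in 122 introns (44.2%) and lower in 18 (6.52%), with a median of 0.40, while mature counts were higher in 39 (14.1%) and lower in 106 (38.4%), with a median of -0.15. For ribosomal protein introns, premature counts were higher in 76 of 104, and mature counts higher in 24 and lower in 17. Of the 148 introns with a higher splicing response, 65 had a lower abundance response and 19 a higher one, against 35.9% and 17.0% over all introns.

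OM14, SIM1 and DMC1 had the most negative abundance differences. OM14, a protein of the mitochondrial outer membrane, had 1829.8, 3041 and 3294 CPM in nam8D at 48 h, against 9259, 10752 and 8273 in WTb. In log phase it had 442, 521 and 434 in nam8D and 331, 358 and 408 in WTb. OM14 was higher at 48 h in both strains, in nam8D by less, and the abundance difference was -2.14 ± 0.23 (SE, adjusted p = 1.9e-06). Its premature share was also apart at 48 h, at 12.6% ± 1.58 in nam8D and 7.52% ± 1.63 in WTb (SD, n = 3 each), with a splicing difference of 0.91 ± 0.22 (SE, adjusted p = 0.0015).

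SIM1 was lower at 48 h in both strains, in nam8D by more. It had 34.0, 31.3 and 29.3 CPM in nam8D and 112, 131 and 119 in WTb at 48 h, with means of 292 ± 22.9 and 266 ± 26.4 in log phase (SD, n = 3 each). Its abundance difference was -2.07 ± 0.14 (SE, adjusted p = 4.0e-08). DMC1 averaged 55.2 ± 5.46 CPM in nam8D and 129.5 ± 25.6 in WTb at 48 h, with 19.3 ± 1.97 and 13.3 ± 2.07 in log phase (SD, n = 3 each), an abundance difference of -1.77 ± 0.23 (SE, adjusted p = 1.1e-05), or -0.78 with WTa as wild type. TMH18, YSC84 and VPS75 completed the 6 most negative, at -1.55 ± 0.17, -1.50 ± 0.17 and -1.42 ± 0.14 (SE). YSC84, an actin-binding protein of endocytosis, averaged 112 ± 17.6 CPM in nam8D and 247 ± 29.0 in WTb at 48 h, and VPS75 56.6 ± 3.29 and 143 ± 3.25 (SD, n = 3 each). With WTa as wild type VPS75 was at -0.80.

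RPS9A, RPS22B and MND1 had the most positive abundance differences. RPS9A, a small-subunit gene, had 2349.6, 1620.4 and 1503 CPM in nam8D and 534, 678 and 541 in WTb at 48 h. In log phase it averaged 683 ± 57.9 in nam8D and 833 ± 24.3 in WTb (SD, n = 3 each). The 48 h values lay above log phase in nam8D and below it in WTb, and the abundance difference was 1.93 ± 0.19 (SE, adjusted p = 1.0e-06). Its premature share at 48 h overlapped, at 7.56% ± 1.41 in nam8D and 8.04% ± 1.81 in WTb (SD, n = 3 each). RPS22B, read at both introns, had abundance differences of 1.74 ± 0.16 at intron 1 and 1.49 ± 0.18 at intron 2 (SE, adjusted p = 6.2e-07 and 5.2e-06). At intron 1 it averaged 967 ± 201 CPM in nam8D and 322 ± 17.0 in WTb at 48 h (SD, n = 3 each).

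MND1, which acts with Hop2 in meiotic recombination, was far higher at 48 h in both strains, in nam8D by more. It had 261, 363 and 328 CPM in nam8D and 103, 120.2 and 109.8 in WTb at 48 h, with 6.76 ± 1.22 and 6.44 ± 1.10 in log phase (SD, n = 3 each). Its abundance difference was 1.44 ± 0.26 (SE, adjusted p = 0.00017), while that of DMC1, another recombination gene, was negative. The MND1 value depended on the wild-type set, and was 3.33 with WTa and 2.39 with the mean of WTa and WTb. The abundance difference of ECM33 was 1.33 ± 0.18 (SE, adjusted p = 2.2e-05), but its mature counts per library total differed by -0.75 ± 0.12 (SE, adjusted p = 7.4e-05). That of YDL012C was 1.06 ± 0.16 (SE, adjusted p = 5.2e-05).

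**Figure D4:**
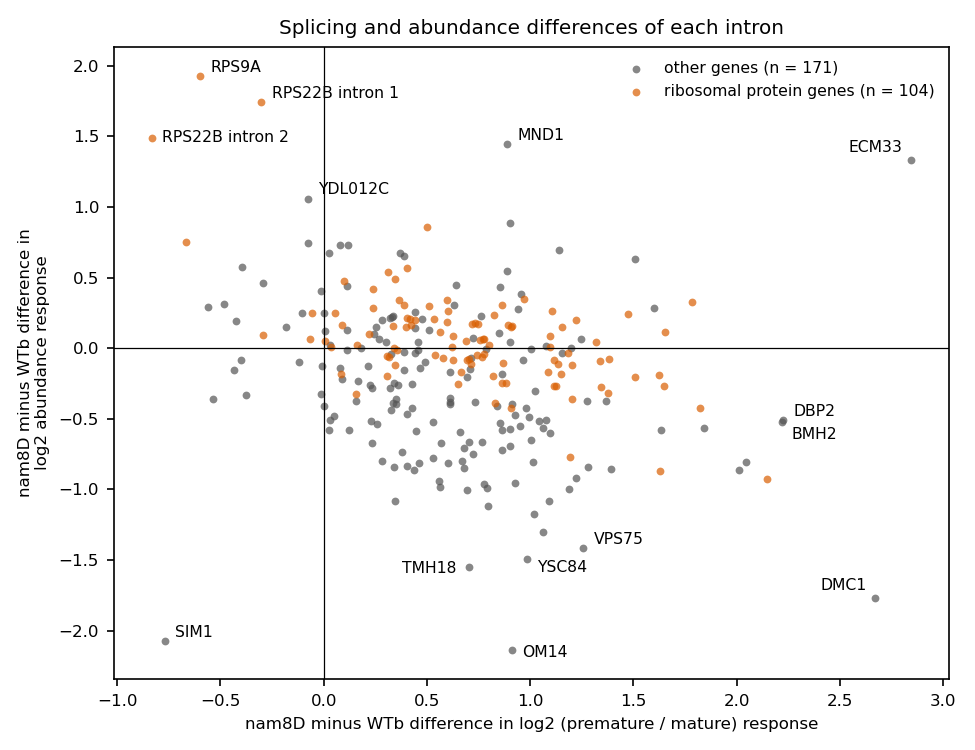
Splicing difference (horizontal axis) against abundance difference (vertical axis, counts per library total), both nam8D response minus WTb response on the log2 scale, for 275 introns. ECM33 stands alone at the upper right (2.84 and 1.33), DMC1 at the lower right (2.67 and -1.77), and RPS9A and RPS22B at the upper left.

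The nam8D response was also set against the mud1D response directly, which uses no wild-type library. Of 274 introns, 10 were higher in nam8D (3.65%) and 6 lower (2.19%), with a median of 0.06, and 70 had an unadjusted p under 0.05. With libraries centred the split was 7 higher (2.55%) and 79 lower (28.8%), with a median of -0.32. Centring moved the median difference away from 0 here, so the library medians differed in response by more than a typical intron did. The 79 lower calls are thus falls against the library medians and need not be falls against most introns. Set side by side, with the WTb libraries shared by both, the median was 0.62 for nam8D minus WTb and 0.56 for mud1D minus WTb, and 148 introns (53.8%) and 139 introns (50.7%) were higher. The mud1D libraries held between 3343811 and 7635253 counts. The counts of this comparison depended on single libraries: without nam8D 48 h replicate 1, whose median premature share was the lowest of the 3, 29 introns were higher in nam8D, and without other libraries the count ran down to 4.

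The introns higher in nam8D than in mud1D are shown by the 5′ ends of 4 of the 6 with the largest differences. The first 6 bases are in capitals.
DID4: GTATGTtgttctgtatttggatcagttatt
MAY24: GTATGTtattcattaccaagactatatccg
UBC8: GTATGTttgataagatatatacgtatattt
IWR1: GTATGTgttgttattctaccgatataacaa
All 4 begin with GTATGT, as did 180 of the 231 introns analysed for sequence. They are short, between 68 and 134 bases, and 124 of the 231 were under 200 bases. ECM33, also among the 6 and shown above, begins with GTATGT and has 330 bases.

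In these 4 introns the strains were apart in log phase, with nam8D below mud1D. DID4, an ESCRT-III subunit of endosomal sorting, had 8.14, 9.43 and 8.49% in nam8D and 6.46, 7.06 and 7.39% in mud1D at 48 h, but 4.67, 4.72 and 4.93% in nam8D and 7.43, 7.04 and 8.32% in mud1D in log phase. The nam8D libraries were above mud1D at 48 h and below it in log phase, and the difference in response was 1.05 ± 0.19 (SE, adjusted p = 0.0029). IWR1, which helps import RNA polymerase II into the nucleus, averaged 50.9% ± 1.25 in nam8D and 49.9% ± 1.95 in mud1D at 48 h, with 33.9% ± 2.69 and 47.3% ± 4.39 in log phase (SD, n = 3 each), a difference of 0.87 ± 0.21 (SE, adjusted p = 0.014). UBC8, a ubiquitin-conjugating enzyme, averaged 14.3% ± 0.37 in nam8D and 16.1% ± 1.18 in mud1D at 48 h, with 13.3% ± 0.83 and 24.7% ± 1.75 in log phase (SD, n = 3 each), a difference of 0.89 ± 0.19 (SE, adjusted p = 0.0069). MAY24 averaged 37.1% ± 1.10 in nam8D and 37.8% ± 3.95 in mud1D at 48 h, with 31.8% ± 3.70 and 49.6% ± 3.67 in log phase (SD, n = 3 each), a difference of 1.02 ± 0.30 (SE, adjusted p = 0.047), which leaving out any of 10 of the 12 libraries ended.

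In RPL7A intron 2 and ECM33 the strains were apart at 48 h, with nam8D above mud1D. RPL7A intron 2 had 4.86, 4.22 and 4.49% in nam8D and 1.70, 1.81 and 2.01% in mud1D at 48 h, without overlap, and 0.656% ± 0.072 and 0.523% ± 0.055 in log phase (SD, n = 3 each), a difference of 1.01 ± 0.20 (SE, adjusted p = 0.0064). ECM33 had 80.8, 87.0 and 87.4% in nam8D and 58.2, 66.2 and 70.2% in mud1D at 48 h. In log2(premature/mature) that gap exceeds the difference in response, so nam8D lay above mud1D on average in log phase too. The ECM33 difference of 0.97 ± 0.29 (SE, adjusted p = 0.047) is weak. Leaving out any of 9 of the 12 libraries ended the call, with values from 0.76 to 1.20 over all 12.

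Lower in nam8D than in mud1D were RPL16B, SRC1, DBP2, URA2, RPL26A and RPS30A. RPL16B, of the large subunit, had 1.57, 3.69 and 2.93% in nam8D and 5.69, 5.10 and 5.82% in mud1D at 48 h, without overlap, and 0.297% ± 0.055 and 0.251% ± 0.034 in log phase (SD, n = 3 each). Its difference was -1.36 ± 0.34 (SE, adjusted p = 0.018), with 1 of the 3 nam8D libraries well below the others at 48 h. SRC1 averaged 62.6% ± 7.93 in nam8D and 75% ± 4.06 in mud1D at 48 h, with 63.2% ± 1.48 and 57.4% ± 4.02 in log phase (SD, n = 3 each), a difference of -1.18 ± 0.29 (SE, adjusted p = 0.014). DBP2 reached the same share in both at 48 h, 84.2% ± 0.36 in nam8D and 84.4% ± 3.52 in mud1D, from 11.5% ± 0.97 and 5.94% ± 0.16 in log phase (SD, n = 3 each), a difference of -1.08 ± 0.23 (SE, adjusted p = 0.0069). URA2, the first enzyme of pyrimidine synthesis, RPL26A and RPS30A had -0.85 ± 0.25, -0.77 ± 0.21 and -0.72 ± 0.21 (SE, adjusted p = 0.047, 0.037 and 0.047). Leaving out single libraries ended the call of each of these 3 in 8 or 9 of 12 cases. Without nam8D 48 h replicate 1, URA2 kept its call at -0.56.

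**Figure D5:**
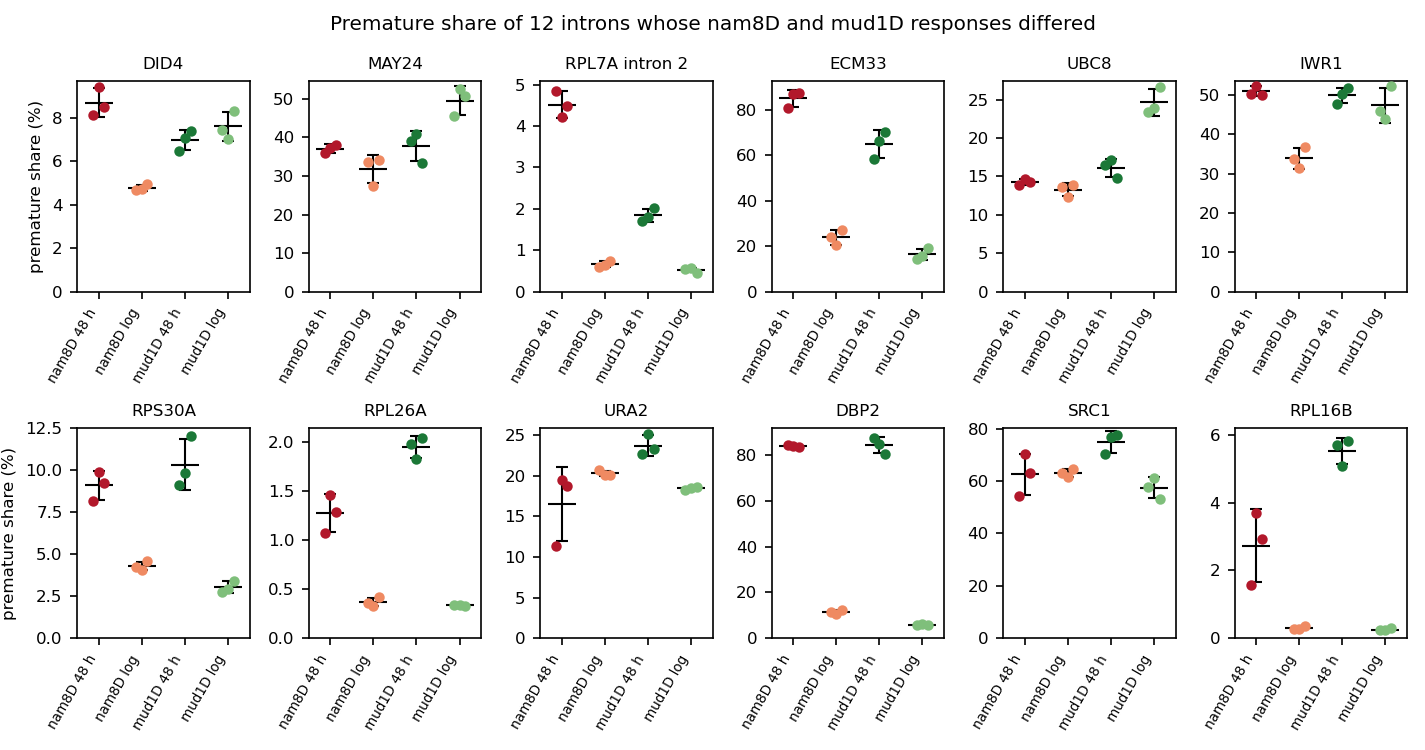
Premature share in percent (vertical axis, from 0, with a scale of its own in each panel) in the nam8D 48 h, nam8D log, mud1D 48 h and mud1D log libraries, for the 6 introns with the largest positive (top row) and the 6 with the largest negative (bottom row) nam8D minus mud1D difference in response. Points are libraries, and black marks are means with SD (n = 3). Panels with the log-phase groups apart include DID4, MAY24, UBC8, IWR1 and DBP2. Those with the 48 h groups apart include DID4, RPL7A intron 2, ECM33 and RPL16B.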

How the data were processed

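Multiplexed primer extension sequencing libraries of Saccharomyces cerevisiae were analysed from the tables the authors deposited. Per the file headers these hold whole-number mature and premature counts for each intron and library. The submitters' processing notes list STAR 2.7.2b, fastp 0.20.0 and FastQC, with genome build R64. The rules for assigning reads to introns and for removing duplicates are not given in these sources. The tables list an intron in a library only with at least 1 mature count.

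Groups came from the labels. The 12 libraries of nam8D and WTb held 3926278 to 7228349 counts, and the 10 most abundant targets took 25.1 to 30.5% of each. Replicates were not the same library deposited again (lowest chi-square per degree of freedom 11.7). Introns listed in all libraries of a fit with a mean of at least 20 counts were tested. For splicing, edgeR 4.0.16 (quasi-likelihood test, R 4.3.3) was run on mature and premature counts with a term for each library, so library size cancels. Abundance was tested with edgeR on summed counts scaled to the library total. P-values were Benjamini-Hochberg adjusted over all introns of a fit, with a threshold of 0.05. Premature shares are given with SD over 3 libraries, and median shares were compared with an exact permutation test.

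On simulated data the splicing test recovered 90% of 60 introns changed by 1 on the log2 scale among 275, with 1 of 215 unchanged introns called. For abundance it was 100% and 1 of 215. The simulation gave all introns and libraries 1 fixed dispersion. It changed as many introns up as down, in nam8D at 48 h only. The data shifted mostly 1 way, so these rates need not hold for them. Alternatives were DESeq2 1.42.0, limma 3.58.1 on log2 odds (pseudocount 0.5 or 5, and with libraries centred on the median intron), TMM and RLE factors, other count minimums, all 23 libraries in 1 fit, WTa as wild type, strain name or replicate number as a term, and each library left out. Figures were drawn with matplotlib 3.10.9, and tables made with pandas 2.3.3, scipy 1.17.1 and numpy 2.4.6 in Python 3.11.15.

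Introns were named by rule: the 12 largest positive and up to 8 largest negative called splicing differences, the intron with the smallest p of each gene list, and REC107, PCH2, MUD1, HAC1, GCR1, DBP2, YRA1, RPL30, RPS14B, MTR2, SRC1 and PTC7. For abundance and for nam8D minus mud1D they were the 6 largest called each way. OM14 and RPS9A shares, and members listed by function, follow from these lists. A result that the rule would name is not reported here. The comparison, the lists and the rule were chosen with earlier results of these data known. Of 284 listed introns, 240 were matched to 1 annotated intron, and genes with several introns or none in the annotation were left without coordinates.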

Additional observations from a re-analysis of the deposited data

Results flagged for a closer look

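Each result in this section is a difference between the responses of 2 groups of libraries that passed the test of that difference (edgeR quasi-likelihood, adjusted p under 0.05), on the log2 scale.

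For splicing in nam8D minus WTb, higher introns were ECM33 (2.84), DMC1 (2.67), DBP2 (2.23), BMH2 (2.22), RPL7A intron 2 (2.15), YIP3 (2.04), CQD1 (2.01), IMD4 (1.84), RPS24B (1.78), RPL42B (1.65), RPL2B (1.65) and ACT1 (1.63). With smaller values, RPL30 (1.15), UBC4 (1.14), EFB1 (1.06), SRC1 (0.89), MTR2 (0.85), GCR1 (0.80) and YRA1 (0.71) were higher. Lower introns were RPS22B intron 2 (-0.83), SIM1 (-0.77), RPS14B (-0.66), MRPL44 (-0.56) and COI1 (-0.54).

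For abundance in nam8D minus WTb, RPS9A (1.93), RPS22B intron 1 (1.74), RPS22B intron 2 (1.49), MND1 (1.44), ECM33 (1.33) and YDL012C (1.06) were higher. OM14 (-2.14), SIM1 (-2.07), DMC1 (-1.77), TMH18 (-1.55), YSC84 (-1.50) and VPS75 (-1.42) were lower.

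For splicing in nam8D minus mud1D, DID4 (1.05), MAY24 (1.02), RPL7A intron 2 (1.01), ECM33 (0.97), UBC8 (0.89) and IWR1 (0.87) were higher. RPL16B (-1.36), SRC1 (-1.18), DBP2 (-1.08), URA2 (-0.85), RPL26A (-0.77) and RPS30A (-0.72) were lower.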

How the results depend on the processing

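For splicing in nam8D minus WTb, centring libraries gave 35 introns higher and 41 lower, and the mean of WTa and WTb as wild type 8 lower. With 1 library left out the counts ran from 127 to 180 higher and 3 to 7 lower, with 180 without nam8D 48 h replicate 1 and 3 lower without WTb 48 h replicate 1. For abundance, 84 were higher with RLE factors and 88 with DESeq2, and with 1 library left out 39 to 53 were higher and 83 to 105 lower. For nam8D minus mud1D, 26 were higher and 14 lower with all 23 libraries fitted, and 79 lower with libraries centred. With 1 library left out, 4 to 29 were higher and 1 to 10 lower. Of the 12 libraries, 9 moved either count by over 1.5 times: 29 were higher without nam8D 48 h replicate 1, 4 to 6 without nam8D 48 h replicate 3, any nam8D log replicate, mud1D 48 h replicate 2 or mud1D log replicates 2 or 3, and 10 were lower without nam8D 48 h replicate 2. For WTa minus WTb, 27 were higher and 37 lower with libraries centred and 6 higher with all 23 libraries, and with 1 library left out 5 to 15 were higher and 60 to 92 lower, with 6 higher without WTb log replicate 2 and 5 without WTa log replicate 3. The nam8D minus WTb difference in median premature share, in percentage points, was 1.02 for ribosomal protein introns, 4.34 for others and 2.21 over pooled counts at 48 h, and 0.0670, 0.96 and 0.295 in log phase. The causes were not tested.

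Introns that changed sign had not passed the test, except ECM33 abundance, which was -0.72 with mature counts only. REC107 was -0.27 centred and -0.0198 with WTa as wild type, PTC7 -0.21 centred, PCH2 -0.13 (without nam8D log replicate 2) to 1.32 with 1 library left out, and MUD1 -0.67 centred, where it passed, 0.0149 with a pseudocount of 5 and -0.11 to 0.13 with 1 library left out. HAC1 was -0.0516 centred, -1.12 with WTa, -0.42 with the mean of both wild types and -0.19 (without WTb log replicate 1) to 1.20 with 1 library left out. Over single introns and settings, 1081 values kept their direction and their side of the threshold, 85 lost the call and 6 gained it, namely MUD1 centred, PCH2 with a pseudocount of 5 and PTC7 under 4 settings. Called introns that moved by over 1.5 times under centring kept the call in RPS24B (1.13), IMD4 (1.17), ACT1 (0.96), RPL2B (0.99), RPL42B (0.98) and EFB1 (0.39), and the 5 lower introns were at -1.50 to -1.21. With WTa as wild type RPL42B was 1.10, EFB1 1.90 and MRPL44 -1.03.

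Replicate numbers did not pair the libraries: deviations of same-numbered libraries correlated from -0.30 to 0.22 over 18 pairs. With the replicate block, nam8D minus WTb gave 149 introns higher and 6 lower for splicing and 46 and 96 for abundance, nam8D minus mud1D 19 and 12, and WTa minus WTb 10 and 73. Depth limits introns with few mature counts, such as PCH2, HAC1 and most meiotic genes.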

Other observations

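Several introns of meiotic genes were listed in too few libraries to be tested, and most had few mature counts at 48 h. SPO22 was listed in 0 of 6 nam8D libraries and in 5 of 6 WTb libraries, with 4, 4 and 1 mature counts beside 39, 33 and 26 premature counts in WTb at 48 h. AMA1, a meiosis-specific activator of the anaphase-promoting complex, was listed in 1 nam8D library at 48 h, with 2 mature and 22 premature counts. In WTb at 48 h AMA1 had 4, 6 and 4 mature and 71, 103 and 56 premature counts. SAE3, a partner of Dmc1, had 5, 4 and 1 mature counts in nam8D and 19, 28 and 19 in WTb at 48 h. Its premature counts were 10, 19 and 17 in nam8D and 15, 18 and 17 in WTb. HOP2 intron 1, from the partner gene of MND1, had 3, 2 and 4 mature counts in nam8D and 22, 17 and 20 in WTb at 48 h. GMC2 and SPO1 overlapped between strains at 48 h. GMC2 had 2, 3 and 1 mature counts in nam8D and 3, 3 and 5 in WTb, beside 19, 25 and 14 and 17, 26 and 14 premature counts. SPO1 had 2, 3 and 1 mature counts in nam8D and 2, 5 and 2 in WTb, beside 15, 9 and 12 and 13, 7 and 10 premature counts. MEI4 was listed in 2 nam8D libraries at 48 h, with 1 and 2 mature counts, and had 6, 6 and 3 in WTb. HFM1 was listed in 1 nam8D library at 48 h, with 1 mature and 132 premature counts, and in 2 WTb libraries, with 4 and 1 mature and 151 and 110 premature counts. No test was run on these introns, and an intron that is not listed may have had premature counts without a mature one.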
